A study of Mus musculus with 3 samples.

Results

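Fabp7 and Slc1a3 were followed as the 2 glial genes of a panel of 296 genes imaged in sagittal sections of whole wild type mouse embryos. The 2 genes were taken by name, and their counts were read in every cell with at least 10 counts of panel genes. The sections came from 1 embryo at E15.5 and from 2 embryos at E9.5, 1 section each, and the labels give neither group a treatment. The assay was MERFISH on the Vizgen MERSCOPE platform, which reads single RNA molecules in place through barcodes built over rounds of imaging and assigns them to segmented cells.

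Fabp7 encodes a brain-type fatty acid binding protein, and Slc1a3 encodes GLAST, a glutamate transporter of the cell membrane. Both are textbook markers of radial glia, the progenitors that line the ventricles of the developing brain, divide to give neurons and later give astrocytes. Fabp7 is also made by the glial precursors of peripheral ganglia and nerves. Notch signalling keeps radial glia from differentiating, and Fabp7 is a known target of it through the factor RBPJ. Stmn2, which encodes stathmin-2, a microtubule regulator of young neurons, was used here as the mark of brain and other neuronal tissue. Scn7a, which encodes a sodium channel alpha subunit found in glia of peripheral nerves and ganglia, was used as the mark of peripheral glia. At E15.5, however, 58.1% of its counts lay in 1 cell cluster that was also high in Stmn2. Scn7a alone therefore does not name a cell as glia here.

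The promoters are shown because the 2 genes were high in the same cells in 1 place and apart elsewhere. Both sequences are RefSeq's, build GRCm38.p6, and cover the 250 bases before the gene's start, 5′ to 3′ on the strand of the gene. Fabp7 lies on chromosome 10, and its promoter is chr10:57784673-57784922 on the plus strand. Slc1a3 lies on chromosome 15, and its promoter is chr15:8710808-8711057 on the minus strand. Capitals mark 2 short motifs that were searched on both strands and do not overlap: TGGGAA, the core letters bound by RBPJ, whose reverse complement is TTCCCA, and TTGGC, 1 arm of the palindrome bound by nuclear factor I.
Fabp7: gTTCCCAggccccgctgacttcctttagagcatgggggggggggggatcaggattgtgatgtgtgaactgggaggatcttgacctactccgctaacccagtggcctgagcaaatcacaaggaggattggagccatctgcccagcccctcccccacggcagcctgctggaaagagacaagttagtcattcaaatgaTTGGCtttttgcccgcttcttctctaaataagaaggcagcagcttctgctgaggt
Slc1a3: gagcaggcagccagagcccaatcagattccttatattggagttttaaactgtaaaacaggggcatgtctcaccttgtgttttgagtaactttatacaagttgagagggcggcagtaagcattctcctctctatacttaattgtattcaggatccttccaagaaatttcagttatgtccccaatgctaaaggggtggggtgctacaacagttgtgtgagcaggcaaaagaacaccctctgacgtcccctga
The Fabp7 window held 1 TGGGAA, on the reverse strand and 249 bases before the start, and 1 TTGGC 55 bases before the start. The Slc1a3 window held 0 of either motif. Of 32851 promoter windows of the same length, 21.59% held TGGGAA and 41.51% held TTGGC, so each motif is common at this length.

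Of all segmented cells, 195915 of 219525 were kept at E15.5, and 830 of 1077 and 6334 of 6835 at E9.5. They held 21227345 counts at E15.5, and 68572 and 1034730 counts in E9.5 sections 1 and 2, with a median of 84 counts per cell at E15.5 and of 61 and 128 at E9.5. E9.5 section 1 was therefore far shallower in all than the others. The 19 blank codes, which belong to no gene, measured the background: they averaged 159.5 counts per 1000000 gene counts (CPM) at E15.5, and 239.5 and 149.2 CPM at E9.5. The highest blank code had 449.1 CPM at E15.5, and 685.4 and 379.8 CPM at E9.5. Areas of low Gnas, a gene of all cells whose level fell by place in the E9.5 sections, held 45.7% and 45.0% of their kept cells. Of the panel's markers, 6 neuronal genes were present but only 4 of the radial glia list (Fabp7, Slc1a3, Notch1 and Vim), 2 of the peripheral glia list (Scn7a and Egfl8) and 0 of the astrocyte list. A cell type could therefore not be read from these glial lists, and cells are called by the genes they hold. Intervals below are exact 95% intervals that cover counting error only, and E15.5 has 1 section, so a pattern within it has no replicate.

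Over whole sections Fabp7 was high at E15.5 and at background level at E9.5, while Slc1a3 had nearly the same level at both stages. Fabp7 had 57801 counts or 2723 CPM in the E15.5 section (2701 to 2745), against 10 counts or 145.8 CPM (69.9 to 268.2) and 243 counts or 234.8 CPM (206.2 to 266.3) in E9.5 sections 1 and 2. The E15.5 level was 6.06 times that of the highest blank code, and both E9.5 levels lay below the highest blank code of their section. Slc1a3 had 11713 counts or 551.8 CPM in the E15.5 section (541.8 to 561.9), against 41 counts or 597.9 CPM (429.1 to 811.1) and 546 counts or 527.7 CPM (484.3 to 573.8) at E9.5. For Slc1a3 the E15.5 section lay between both E9.5 sections, and its level was 3.46 times the mean blank code at E15.5, and 2.50 and 3.54 times at E9.5. Against the highest blank code it was 1.23 times at E15.5, and 0.872 and 1.39 times at E9.5. Stmn2 had 28052 CPM at E15.5, against 831.2 and 564.4 CPM at E9.5. Scn7a had 518.6 CPM at E15.5, against 670.8 and 363.4 CPM at E9.5, so that the peripheral mark, like Slc1a3, had its E15.5 level within the E9.5 range.

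**Figure D1:**
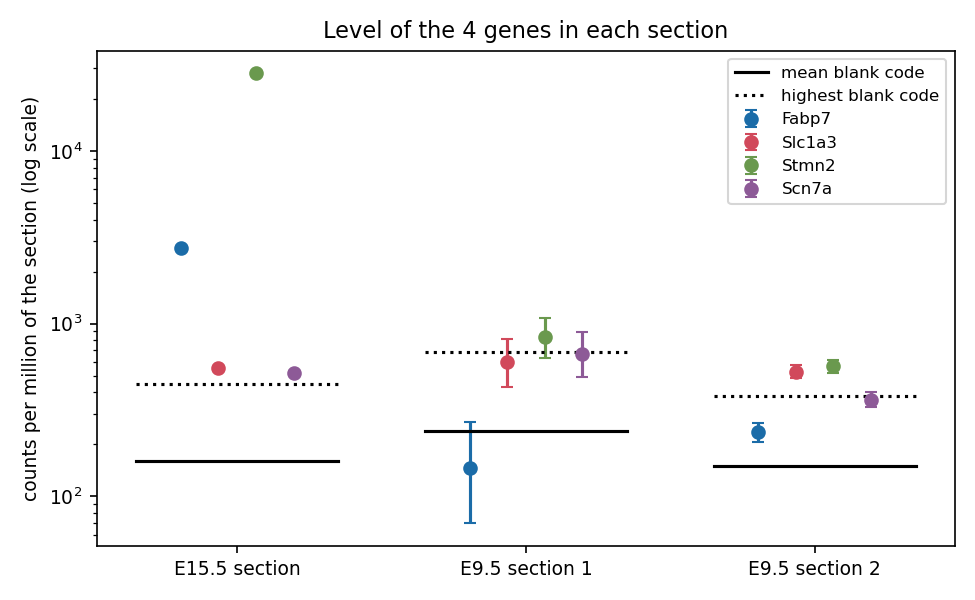
Level in CPM of Fabp7, Slc1a3, Stmn2 and Scn7a (log axis) in the E15.5 section and both E9.5 sections, with exact 95% counting intervals; solid and dotted lines give the mean and the highest of 19 blank codes. Fabp7 stands at 2723 CPM at E15.5 and below the highest blank code in both E9.5 sections, while Slc1a3 stays between 527.7 and 597.9 CPM.

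Stage was tested on counts summed over the kept cells of each section with edgeR's quasi-likelihood test over all 296 genes, with Benjamini-Hochberg adjustment. Fabp7 was 18.7 and 11.6 times its E9.5 levels, a log2 fold change of 3.80 ± 1.01 (SE), with an adjusted p of 0.00754; with the mean blank level subtracted, which leaves little at E9.5, the log2 fold change was 5.62. Slc1a3 was 0.923 and 1.05 times its E9.5 levels, a log2 fold change of -0.01 ± 1.02, with an adjusted p of 0.995; at this standard error a change of several fold in either direction would not have passed. Of all genes, 44 passed (14.9%), 28 higher at E15.5 (9.46%) and 16 lower (5.41%). The fit has 1 residual degree of freedom, takes its spread from the E9.5 pair and cannot tell stage from embryo or imaging run, and an exact permutation of the stages over 3 sections could not go below p = 0.333. In the low-Gnas areas of the E9.5 sections Fabp7 had 41.5 and 113.9 CPM, against 202.4 and 304.3 CPM elsewhere in them, and without those areas its log2 fold change was 3.40 (adjusted p = 0.0135). Slc1a3 had 414.9 and 654.4 CPM in those areas, against 697.1 and 454.9 CPM elsewhere. In sums over a section, fewer cells of a type and less RNA per cell cannot be told apart.

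The related genes moved as follows in that fit. Of the Fabp and Slc1 families, 4 of 9 listed genes were on the panel, and Fabp7 and Fabp4, a fatty acid binding protein of fat cells and endothelium, were higher. Fabp4 had 199.2 CPM at E15.5, against 102.1 and 41.6 CPM at E9.5, all near the blank level. Of 5 Notch pathway genes on the panel, 1 passed: Notch1, the receptor, had 5592 CPM at E15.5, against 39929 and 15682 CPM at E9.5, a log2 fold change of -2.29 ± 0.62 (adjusted p = 0.00754). The list's median log2 fold change was -0.70, beside -0.15 over all genes. Of 6 neuronal genes 4 were higher, Rgs4, Stmn2, Tubb2b and Scn3a, with a median of 3.20. Stmn2 had the largest of these changes, 5.36 ± 0.63 (adjusted p = 2.037e-13). Tubb2b, a neuronal tubulin, had 13861 CPM at E15.5, against 889.6 and 756.7 CPM at E9.5. Vim, the intermediate filament of radial glia and of mesenchyme, had 19251 CPM at E15.5, against 39375 and 38967 CPM at E9.5, and did not pass (adjusted p = 0.261). Of 12 mitosis and DNA synthesis genes, 0 were higher and 2, Pimreg and Aurka, were lower. Both peripheral glia genes on the panel, Scn7a (log2 fold change 0.05 ± 1.00) and Egfl8 (-0.63 ± 0.83), did not pass.

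Within the E15.5 section most Fabp7 counts lay in cells that held several, while most Slc1a3 counts lay 1 to a cell, in fewer cells. Cells with at least 2 counts were called positive. Fabp7 was positive in 7432 cells, 3.79% of the section (3.71 to 3.88), and these held 81.8% of its counts. A further 10505 cells had 1 count and stayed below the threshold, 4775 had at least 3, 1273 had at least 10, and the highest cell had 107. Slc1a3 was positive in 1446 cells, 0.738% (0.701 to 0.777), which held 37.7% of its counts, while 7300 cells had 1 count, 568 had at least 3, and the highest cell had 34. At E9.5, Fabp7 was positive in 0 of 830 cells, which allows up to 0.361%, and in 21 of 6334 cells (0.332%), with at most 4 counts in a cell. Slc1a3 was positive in 4 of 830 (0.482%) and 52 of 6334 E9.5 cells (0.821%). Blank codes were positive in 0.0550% of E15.5 cells on average and in 0.374% at most, against 0.102% and 0.361% in E9.5 section 1, and 0.108% and 0.489% in E9.5 section 2, so the E9.5 Fabp7 shares do not exceed the highest blank code. With each cell thinned to 50 counts, Fabp7 was positive in 2.40% of 136001 E15.5 cells, against 0 of 494 and 1 of 5073 E9.5 cells. Slc1a3 was positive in 0.216% of the thinned E15.5 cells, against 1 of 494 and 4 of 5073 at E9.5.

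The 2 genes shared cells at E15.5. Of the 1446 Slc1a3-positive cells, 816 were also Fabp7-positive (56.4%), where 54.9 would be expected if the 2 shares were independent, a ratio of 14.9 (13.9 to 15.9). Of the more numerous Fabp7-positive cells, 11.0% were Slc1a3-positive, against 0.738% of all cells. Fabp7-positive cells overlapped the neuronal mark in 5661 cells, 76.2% of them, where Stmn2 was positive in 22.6% of the section and the ratio to expectation was 3.37 (3.28 to 3.46). They overlapped the peripheral mark in 557 cells, 7.50% of them and 42.3% of the 1316 Scn7a-positive cells, with a ratio of 11.2 (10.3 to 12.1). Slc1a3 differed from Fabp7 here: 656 cells (45.4% of Slc1a3-positive cells) held Stmn2, a ratio of 2.01 (1.86 to 2.17), although the Stmn2 level was 26619 CPM in Slc1a3-positive cells, against 28072 CPM in other cells (0.948-fold, 0.927 to 0.970). Of Slc1a3-positive cells, 2 held Scn7a where 9.71 would be expected, a ratio of 0.206 (0.0249 to 0.744). No cell was positive for Fabp7, Slc1a3 and Scn7a together: the 7432 Fabp7-positive cells divide into 816 with Slc1a3, 557 with Scn7a and 6059 with neither. Positive cells were deeper than other cells, with a median of 134 counts against 82 for Fabp7 and of 184 against 83 for Slc1a3, and deeper cells reach 2 counts of any gene more often. Thinned to 50 counts, the ratio was 28.8 for Fabp7 with Slc1a3, 2.73 for Fabp7 with Stmn2, 3.22 for Fabp7 with Scn7a and 1.32 for Slc1a3 with Stmn2, and 0 cells held Slc1a3 and Scn7a where 0.897 would be expected. The overlap of Fabp7 with Scn7a thus lost most of its size in thinned cells and rested on 32 cells there. The cut of 2 counts is also harder to reach at 50 counts per cell, so this fall does not measure depth alone. As a level at their own depth, Scn7a had 3231 CPM in Fabp7-positive cells, against 357.9 CPM in other cells (9.03-fold). Cells with Fabp7 and Scn7a also had larger outlines, with a median volume of 982.6 in the deposited unit, against 639.2 over the section, and cells with Fabp7 and Slc1a3 had 743.7; the part of outlines that span several cells was not tested.

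The marks changed with the amount of Fabp7 in the cell. Slc1a3 had 383.8, 411.7, 893.7, 2865 and 10845 CPM in E15.5 cells with 0, 1, 2 to 4, 5 to 9 and at least 10 Fabp7 counts, so it stood highest in the cells with most Fabp7. Stmn2 had 20597, 74603, 98955, 95058 and 52597 CPM and Scn7a had 290.6, 1231, 3579, 4576 and 893.9 CPM over the same classes, both highest at intermediate Fabp7 and lower again in the top class. Notch1 had 27425 CPM in the top class, against 5163 CPM in cells without Fabp7. Ordered by Slc1a3 instead, Fabp7 had 1712, 6928, 39803, 115098 and 116457 CPM in cells with 0, 1, 2 to 4, 5 to 9 and at least 10 Slc1a3 counts. Scn7a had 530.2 CPM in cells without Slc1a3 and 417.6, 176.6, 75.9 and 83.2 CPM in the classes above it. The values of 75.9 and 83.2 CPM come from 164 and 31 cells and lie below the mean blank code of 159.5 CPM. Of the 164 cells with 5 to 9 Slc1a3 counts 96.3% were Fabp7-positive, and of the 31 cells with at least 10 all were. The median depth of these classes also differed, with 172 counts per cell in the top Fabp7 class, against 80 in cells without Fabp7, and with 387 in the top Slc1a3 class, against 81 in cells without Slc1a3.

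**Figure D2:**
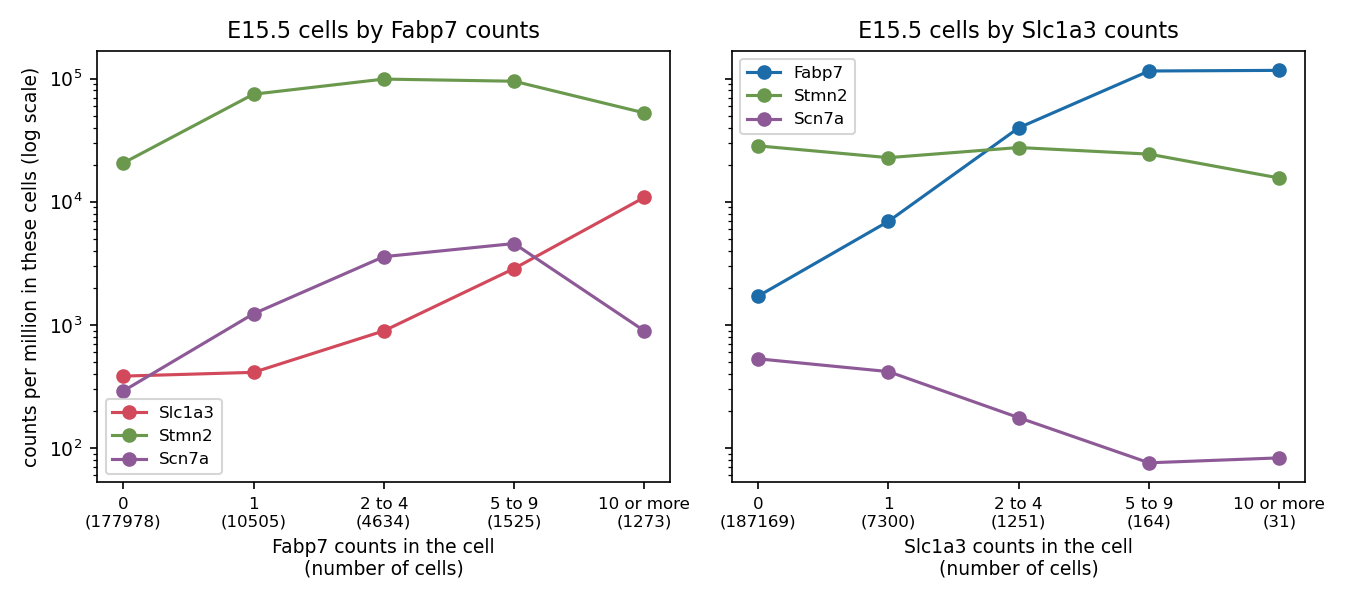
Level in CPM (log axis) of the other genes in E15.5 cells grouped by their Fabp7 counts (left) and by their Slc1a3 counts (right), with the number of cells under each class. Slc1a3 stands at 10845 CPM in cells with at least 10 Fabp7 counts, while Stmn2 and Scn7a peak at intermediate Fabp7. Scn7a falls below 100 CPM in cells with at least 5 Slc1a3 counts, under the mean blank code of 159.5 CPM.

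The 816 cells with both genes held more Notch1 and Vim and less Stmn2 than the cells around them. They were set against all other kept cells of the section and against their neighbours, the up to 10 nearest cells within 50 µm that held at most 1 count of Fabp7, Slc1a3 and Scn7a each. The cells with both genes had a median of 176.5 counts, against 46 in the 1231 neighbours. Their Stmn2 level was 43567 CPM, against 89177 CPM in neighbours and 27937 CPM in all other cells, so it lay between these. Stmn2 was positive in 69.5% of them, against 58.5% of the shallower neighbours. Of 6 neuronal genes, Meis2 and Tubb2b were at least 2-fold higher than in other cells, and Reln and Stmn2 were at least 2-fold lower than in neighbours. Notch1 had 31962 CPM, against 6541 CPM in neighbours, and Vim had 40491 CPM, against 13070 CPM in neighbours. Notch1 was positive in 77.7% of the cells with both genes, against 8.37% of neighbours, at the depths given above.

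At least a 2-fold difference from other cells was used to describe the panel. In the cells with both genes, 38 of 293 genes (the panel without Fabp7, Slc1a3 and Scn7a) were at least 2-fold higher (13%) and 129 lower (44%). Among the leading genes, chosen by fold after their values were seen, were Mfsd2a (11.6-fold, 11.1 to 12.1), a transporter of omega-3 lipids, Pdpn (10.4-fold), Sfrp2 (7.89-fold), a secreted Wnt modulator, Cxcr4 (7.42-fold), a chemokine receptor, Sparcl1 (6.18-fold), Notch1 (5.92-fold) and Naaa (5.12-fold). All of these also stood above the neighbours, Sfrp2 at 24971 CPM, against 1869 CPM in neighbours (13.4-fold). The lowest was H19, an imprinted RNA of mesoderm and endoderm, with 1717 CPM, against 141512 CPM in other cells. Against neighbours, 29 genes were at least 2-fold higher (9.9%) and 97 lower (33.1%). Of 5 Notch genes, the receptor Notch1 and the ligand Jag1 were at least 2-fold higher in both comparisons, Notch4 was lower in both, Heyl was lower than in other cells and Dll4 lower than in neighbours. Of 12 mitosis genes 11 were at least 2-fold lower than in other cells and 2 were lower than in neighbours. All 3 mesenchyme genes, Col1a2, Dcn and Prrx1, were lower in both comparisons, and so were 3 of 6 endothelial genes against other cells and 4 of 6 against neighbours.

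The 557 cells with Fabp7 and Scn7a were a different set. Slc1a3 had 25 counts or 147 CPM in them, below the mean blank code of the section, against 343.1 CPM in their neighbours. Stmn2 had 142086 CPM, against 56423 CPM in neighbours, and 99.1% of the cells were Stmn2-positive. Their leading genes over other cells were Rgs4, a regulator of G protein signalling (9.41-fold), Spock2 (7.38-fold), Stra6, the retinol transporter (6.60-fold), Casz1, a zinc finger factor (6.51-fold), Fam89a (6.37-fold) and Egfl8 (5.91-fold). Egfl8 stood no higher than next door, with 1011 CPM, against 1038 CPM in neighbours. In all, 28 of 293 genes were at least 2-fold higher (9.56%) and 116 lower (39.6%) than in other cells, and 22 higher (7.51%) and 102 lower (34.8%) than in neighbours. Of 6 neuronal genes, 4 stood at least 2-fold above the neighbours, Rgs4, Scn3a, Stmn2 and Tubb2b, and of 12 mitosis genes 9 stood lower.

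The 6059 Fabp7-positive cells with neither gene differed by 2-fold from the cells around them in few genes. They had 86174 CPM of Stmn2, against 89183 CPM in neighbours, and 1101 CPM of Slc1a3, against 336.4 CPM in neighbours. Over other cells, 24 genes were at least 2-fold higher (8.19%) and 67 lower (22.9%), led by Hand2, a factor of sympathetic and heart cells (4.55-fold), Egfl8 (4.46-fold) and Rgs4 (4.30-fold). Of 6 neuronal genes 5 were at least 2-fold higher than in other cells and 0 than in neighbours. Against neighbours 9 genes were higher (3.07%) and 6 lower (2.05%). Among these Notch1 had 10622 CPM, against 4053 CPM in neighbours, and Mfsd2a had 4453 CPM, against 1850 CPM in neighbours.

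Summed over the 630 Slc1a3-positive cells without Fabp7, neuronal genes were low. They had 7596 CPM of Stmn2, against 9671 CPM in neighbours, with 14.1% of them Stmn2-positive, against 12.5% of neighbours, and all 6 neuronal genes were at least 2-fold lower than in other cells. Among their leading genes were Pltp, a phospholipid transfer protein (6.35-fold), Vtn, the matrix protein vitronectin (5.50-fold), Stra6 (4.13-fold), Foxd1, a factor of stromal cells (3.05-fold), and Cdh5, the adhesion protein of endothelium (2.85-fold). Over other cells 14 genes were at least 2-fold higher (4.78%) and 41 lower (14%), and the mesenchyme genes Col1a2 and Dcn were among the higher ones. Over neighbours 0 genes were higher and 7 were lower (2.39%). They were spread over 24 clusters, with none holding more than 17.6%. A blank code was positive in 107.7 cells of the section on average and in 732 at most, so the set of 630 was smaller than that of the highest blank code. The part of background in this set was not tested.

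Summed over the 759 Scn7a-positive cells without Fabp7, the neuronal mark was high and Slc1a3 was low. Their Fabp7 was held to at most 1 count per cell by the choice of the set, as it was in the neighbours. The 759 cells had 1586 CPM of Fabp7 and 192.2 CPM of Slc1a3, against 884.7 and 322.6 CPM in neighbours. Their Stmn2 level was 96389 CPM, against 21713 CPM in neighbours. Stmn2 was positive in 62.2% of them, against 99.1% of the cells with Fabp7 and Scn7a, at a median of 177 counts per cell, against 283. Over other cells 34 genes were at least 2-fold higher (11.6%) and 44 lower (15%), led by Rgs4 (7.96-fold), Lxn (4.93-fold) and Casz1 (4.77-fold). Rgs4 and Casz1 were thus among the leading genes of the Scn7a-positive cells with and without Fabp7. Against neighbours 18 genes were higher (6.14%) and 52 lower (17.7%). The endothelial genes Cdh5, Cldn5 and Pecam1 were at least 2-fold higher than in other cells, and 0 of 6 endothelial genes were so against neighbours.

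In space, Fabp7 was above its section level in Stmn2-rich squares and Slc1a3 was near its own. The section was cut into 2713 squares of 100 µm with at least 20 kept cells, and a square was called rich in a gene at 2 times the section's level. In the 503 Stmn2-rich squares Fabp7 had 6646 CPM, 2.44 times its level in the section (2.41 to 2.47), and Slc1a3 had 597.4 CPM, 1.08 times (1.04 to 1.12), which became 1.30 times with 200 µm squares and 0.909 times with a 3-fold threshold. In the 192 Scn7a-rich squares Fabp7 stood at 1.60 times its section level (1.55 to 1.64) and Slc1a3 at 0.575 times (0.517 to 0.638). The Fabp7 excess in Scn7a-rich squares lay where both marks met: in the 47 squares rich in both it stood at 3.16 times, and in the 145 rich in Scn7a alone at 0.414 times. Slc1a3 stood at 0.459 and 0.663 times in the same classes. Squares rich in neither mark held 42.9% of the Fabp7 counts and 73.3% of the Slc1a3 counts, against 136492 of the 189064 cells in squares.

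The cell sets divided by place in the same way. Squares rich in both marks are counted apart here, and the Stmn2-rich shares leave them out. Of the 557 cells with Fabp7 and Scn7a, 94.8% lay in squares rich in both marks, which held 1.69% of all kept cells. Of the 816 cells with Fabp7 and Slc1a3, 46.2% lay in Stmn2-rich squares and 52.3% in squares rich in neither mark. Of the 6059 cells with neither gene, 60.3% lay in Stmn2-rich squares, against 21.6% of all kept cells. Of the 630 cells with Slc1a3 alone, 85.4% lay in squares rich in neither mark, against 69.7% of all kept cells.

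Fabp7 was gathered in a few patches of adjoining squares. Its 209 rich squares formed 31 patches and held 74.6% of its counts in the section. The largest patch had 88 squares and 8045 cells around x = 3207 and y = 7009 µm and alone held 59.9% of the section's Fabp7 counts. There Fabp7 had 44502 CPM, 16.3 times the section, Slc1a3 had 5110 CPM or 9.26 times, Stmn2 stood at 3.07 times and Scn7a at 0.339 times. This patch held 775 of the 816 cells with both genes. Another 2 patches were of a different kind, rich in Scn7a and poor in Slc1a3. A patch of 25 squares around x = 5013 and y = 4910 µm had Scn7a at 25.4 times, Stmn2 at 3.67 times and Slc1a3 at 0.602 times the section, and held 57.8% of the section's cells with Fabp7 and Scn7a. A patch of 10 squares around x = 2257 and y = 5906 µm had Scn7a at 21.7 times, Stmn2 at 3.71 times and Slc1a3 at 0.385 times, and held 35.2% of them. A patch of 18 squares around x = 2085 and y = 7960 µm had Fabp7 at 5.91 times, Slc1a3 at 1.93 times and Stmn2 at 2.50 times, and a patch of 15 squares around x = 1257 and y = 6415 µm had them at 7.07, 1.70 and 1.72 times. A further patch of 15 squares around x = 854 and y = 6215 µm had Fabp7 at 3.18 times with Stmn2 at 0.0831 times, on 182 Fabp7 counts and a median of 23 counts per cell.

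Scn7a was not tied to Fabp7 everywhere. The largest Scn7a patch, 59 squares around x = 5229 and y = 3326 µm, had Scn7a at 4.25 times the section with Fabp7 at 0.0693 times, Stmn2 at 0.00953 times and Slc1a3 at 0.569 times. It held 162 Scn7a-positive cells, 12.3% of the section's, of which 0 were Fabp7-positive. Only 6 of its 3231 cells were Stmn2-positive, so the Scn7a-positive cells without Fabp7 did not share the neuronal mark in every place. Stmn2 was not tied to Slc1a3 either, since the next 2 largest Stmn2 patches had Fabp7 at 1.88 and 1.26 times and Slc1a3 at 0.202 and 0.230 times.

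Slc1a3 was more scattered by this measure. Its 238 rich squares formed 68 patches, 40 of them of 1 square, and held 51.4% of its counts. Of the 31 Fabp7 patches, 15 were of 1 square. All squares together held 11509 counts of Slc1a3, against 56597 of Fabp7, so an Slc1a3 square is called rich on far fewer counts. The part of counting error in the small Slc1a3 patches was not tested. The largest, with 59 squares, lay in the largest Fabp7 patch and had Slc1a3 at 12.0 times and Fabp7 at 20.3 times the section. The next 4 had Slc1a3 at 3.57, 3.08, 3.06 and 3.31 times, with Fabp7 at 0.0680, 0.510, 0.412 and 0.331 times. All 4 of these patches were thus poor in Fabp7.

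**Figure D3:**
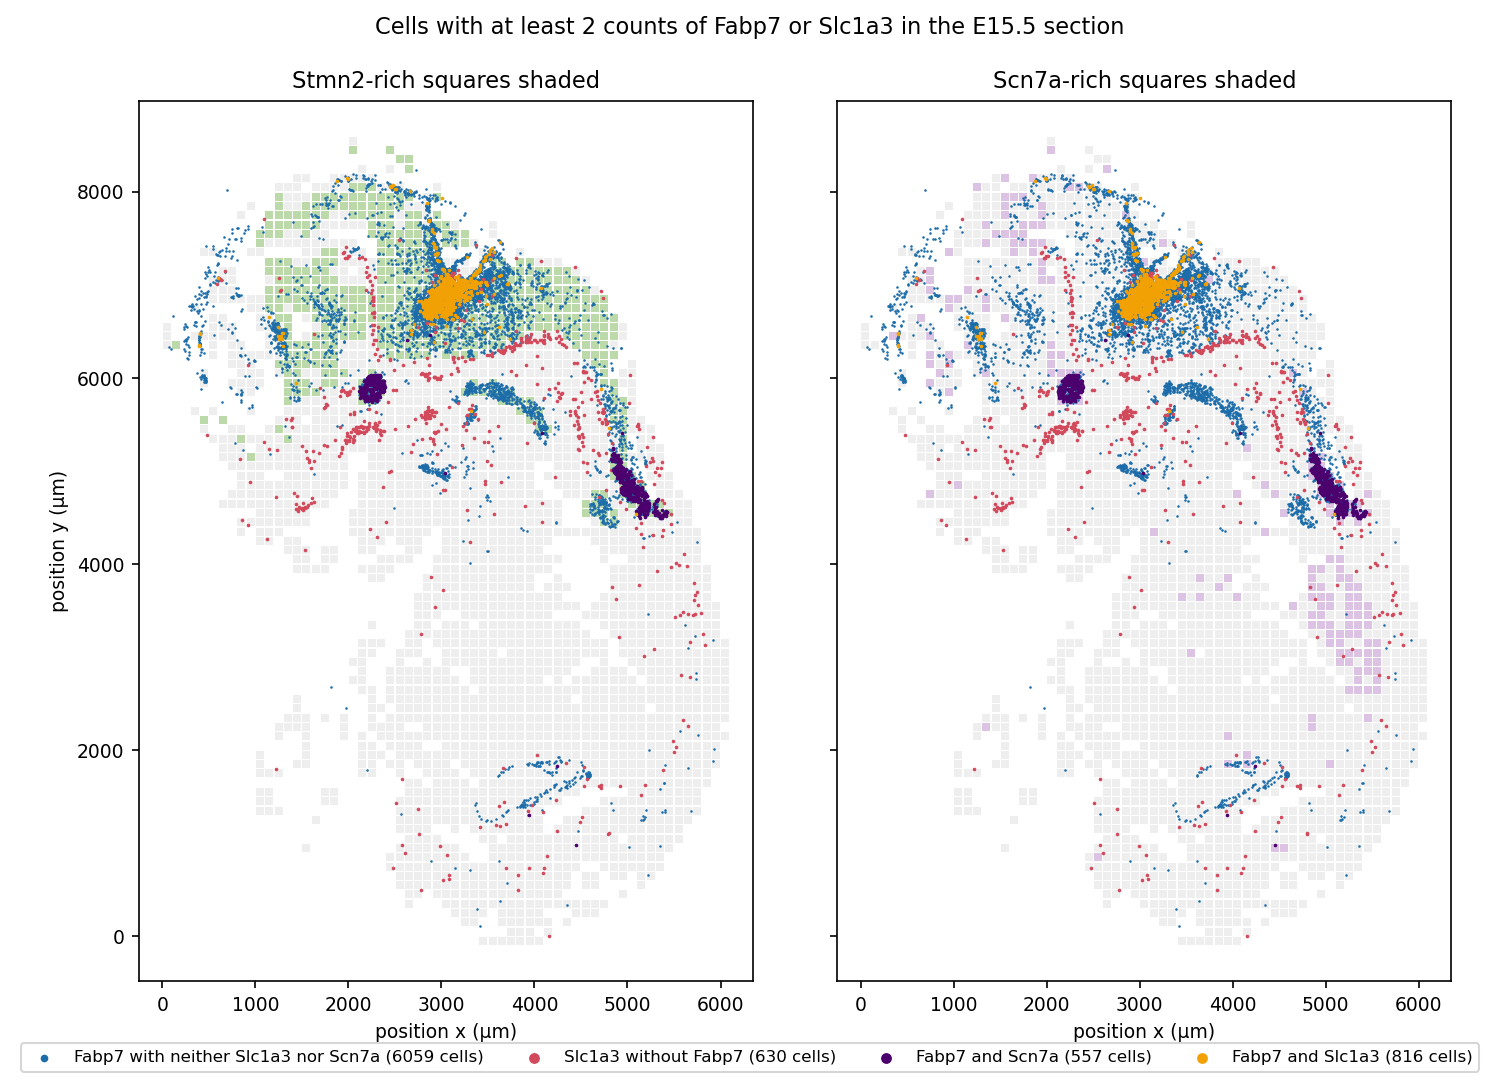
Positions in µm of the E15.5 cells with at least 2 counts of Fabp7 or Slc1a3, coloured by the 4 sets given in the legend, over grey 100 µm squares with Stmn2-rich squares shaded on the left and Scn7a-rich squares on the right. Cells with both genes gather in 1 patch at about x = 3207 and y = 7009 µm, and cells with Fabp7 and Scn7a in 2 places. Cells with Slc1a3 alone lie mostly in squares rich in neither mark.

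Both genes were lower with distance from the core of the largest patch out to 300 µm. The core was taken as its 1092 cells with at least 10 Fabp7 counts, so Fabp7 in the core itself is fixed by that choice. The patch was also chosen as rich in Fabp7, so a fall of Fabp7 away from it is partly built in. Slc1a3 had 12860 CPM in the core, 4572 CPM in cells up to 25 µm away, 1381 CPM at 25 to 50 µm, 684.2 CPM at 50 to 100 µm and 216.2 CPM at 200 to 300 µm. Fabp7 outside the core had 36607, 11883 and 6522 CPM at the first 3 of these distances, and at 200 to 300 µm still had 2491 CPM. At that distance Slc1a3 was below its section level of 551.8 CPM and Fabp7 was near its own of 2723 CPM. Farther out Slc1a3 was higher again, with 352.5 CPM at 300 to 400 µm, 679.2 CPM at 400 to 600 µm and 365.9 CPM at 600 to 800 µm, while Fabp7 had 1792, 1481 and 2182 CPM. Stmn2 ran the other way, with 45567 CPM in the core, 92329 CPM up to 25 µm away and 126932 CPM at 100 to 200 µm, before 41775 CPM at 600 to 800 µm. Scn7a stayed between 119.1 and 236.2 CPM out to 600 µm.

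**Figure D4:**
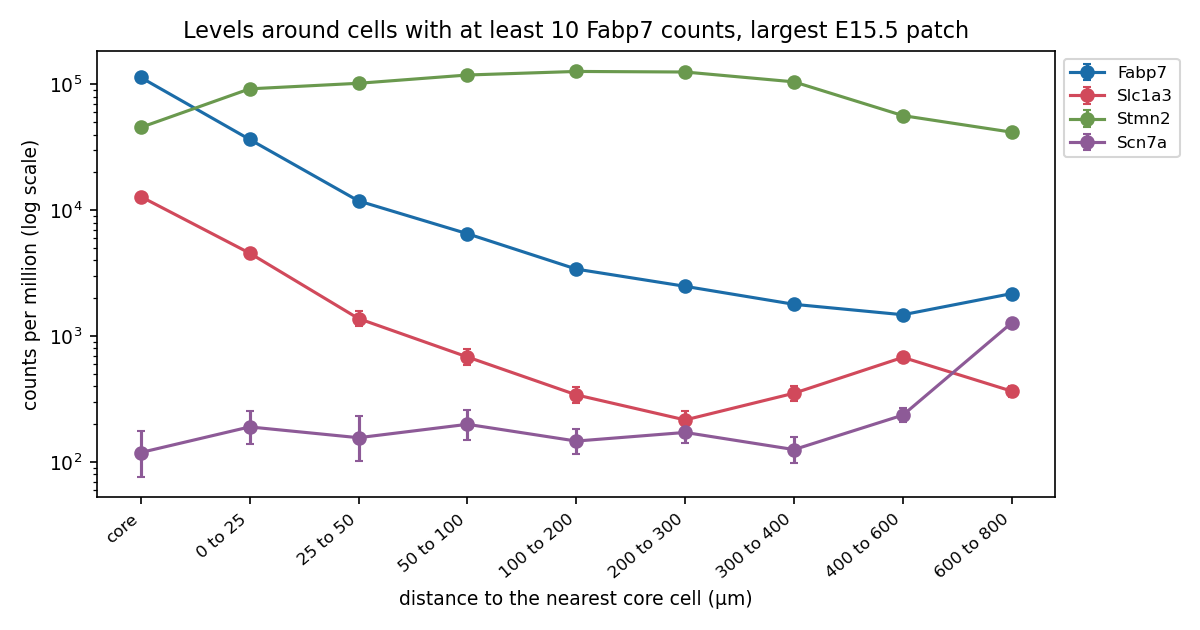
Level in CPM (log axis) of the 4 genes in the 1092 core cells of the largest E15.5 Fabp7 patch and in cells at growing distance in µm from the nearest core cell, with exact 95% counting intervals. Fabp7 and Slc1a3 are lower with distance to 2491 and 216.2 CPM at 200 to 300 µm, where Stmn2 has 125626 CPM, and Slc1a3 is higher again at 400 to 600 µm, with 679.2 CPM.

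Square by square at E15.5, the genes most like Fabp7 by Pearson r of log2(CPM + 100) were Tubb2b (0.69), Stmn2 (0.69), Tspan7 (0.64), Scn3a, a neuronal sodium channel (0.62), Spock2 (0.61), Lrp8, a Reelin receptor (0.60), Cpe (0.59) and Rgs4 (0.58). The least like it were H19 (-0.66), Hmmr (-0.54), Aurka, a mitotic kinase (-0.51), and Fn1, fibronectin (-0.51). Slc1a3 had no partner of that strength, on 11509 counts in these squares, against 56597 of Fabp7. Its closest were Pdpn (0.37), Timp3 (0.35), Fstl1 (0.35), Pltp (0.35), Vim (0.35), Mfap2 (0.33), Sparcl1 (0.33) and Fbln2 (0.33). Farthest from it were Car2 (-0.32), Ptp4a3 (-0.32), Odc1 (-0.29) and Dut (-0.26). Fabp7 and Slc1a3 themselves had r = 0.25 and a Spearman rho of 0.14 over the 2713 squares, which placed Slc1a3 48th among the 295 other genes for Fabp7. At E9.5, r between Fabp7 and Slc1a3 was -0.30 over 22 squares and -0.17 over 108 squares, at counts close to background. Squares share a section, its depth and its tissue borders, so these values describe the sections only. Few counts per square also weaken r, and how far this lowered the values of Slc1a3 was not tested.

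Cells were also clustered on the panel without Fabp7 and Slc1a3, with Stmn2 and Scn7a kept in. Of 32 E15.5 clusters, both genes were highest in cluster 12, with 4666 cells, led by Mfsd2a, Pdpn and Cxcr4. Fabp7 had 65386 CPM there (64618 to 66162), 24.0 times the section and 47.8% of its counts, and 46.1% of the cells were positive. Slc1a3 had 7643 CPM there (7382 to 7911), 13.9 times the section and 27.6% of its counts. The cluster held 669 of the 816 cells with both genes (82.0%).

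The next highest cluster for Fabp7 was cluster 17, with 2449 cells, led by Scn7a, Rgs4 and Egfl8. Fabp7 had 10127 CPM and was positive in 43.2% of its cells, while Slc1a3 had 150.7 CPM, below the mean blank code. Stmn2 had 123648 CPM in cluster 17 and was positive in 96.3% of its cells. The cluster held 58.1% of the section's Scn7a counts, so most of the peripheral mark lay with the neuronal one. It held 98.2% of the cells with Fabp7 and Scn7a, a share that the use of Scn7a in the clustering partly fixes. Cluster 27, of 1158 cells with a median of 16 counts, led by Slco1c1, Car14 and Tmem108, had Fabp7 at 10014 CPM and Slc1a3 at 2173 CPM. Slc1a3 was also at least 2 times its section level in cluster 32 (111 cells, led by Oit3, Zic1 and Pdzk1ip1), with 1732 CPM, in cluster 15 (led by Vtn, Cldn5 and Pltp), with 1387 CPM, and in cluster 14 (with Stra6 and Vtn among its leading genes), with 1149 CPM. In clusters 32 and 14 Fabp7 was below the highest blank code, with 305.6 and 323.6 CPM, and in cluster 15 it had 3492 CPM, 1.28 times the section, with 6.03% of cells positive.

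Clusters that carried neuronal markers held Fabp7 above the section's level and Slc1a3 below it. Neuronal-like cluster 3, led by Meis2, Reln and Stmn2, had Fabp7 at 5358 CPM and held 19.3% of its counts, with 10.4% of cells positive. Slc1a3 had 511.8 CPM there, 0.928 times the section, and 9.08% of its counts. Neuronal-like cluster 18, led by Hand2, Rgs4 and Ccnd1, had Fabp7 at 5313 CPM and Slc1a3 at 86.0 CPM. Neuronal-like cluster 6, led by Tubb2b, Scn3a and Cd200, had Fabp7 at 3644 CPM and Slc1a3 at 308.4 CPM. As a floor, the Car2-led cluster 2, whose leading gene is a carbonic anhydrase of red blood cells, had 155 CPM of Fabp7 and 84.5 CPM of Slc1a3, with 0.0101% and 0% of 19831 cells positive at a median of 44 counts. Both of its levels were at or below the mean blank code.

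**Figure D5:**
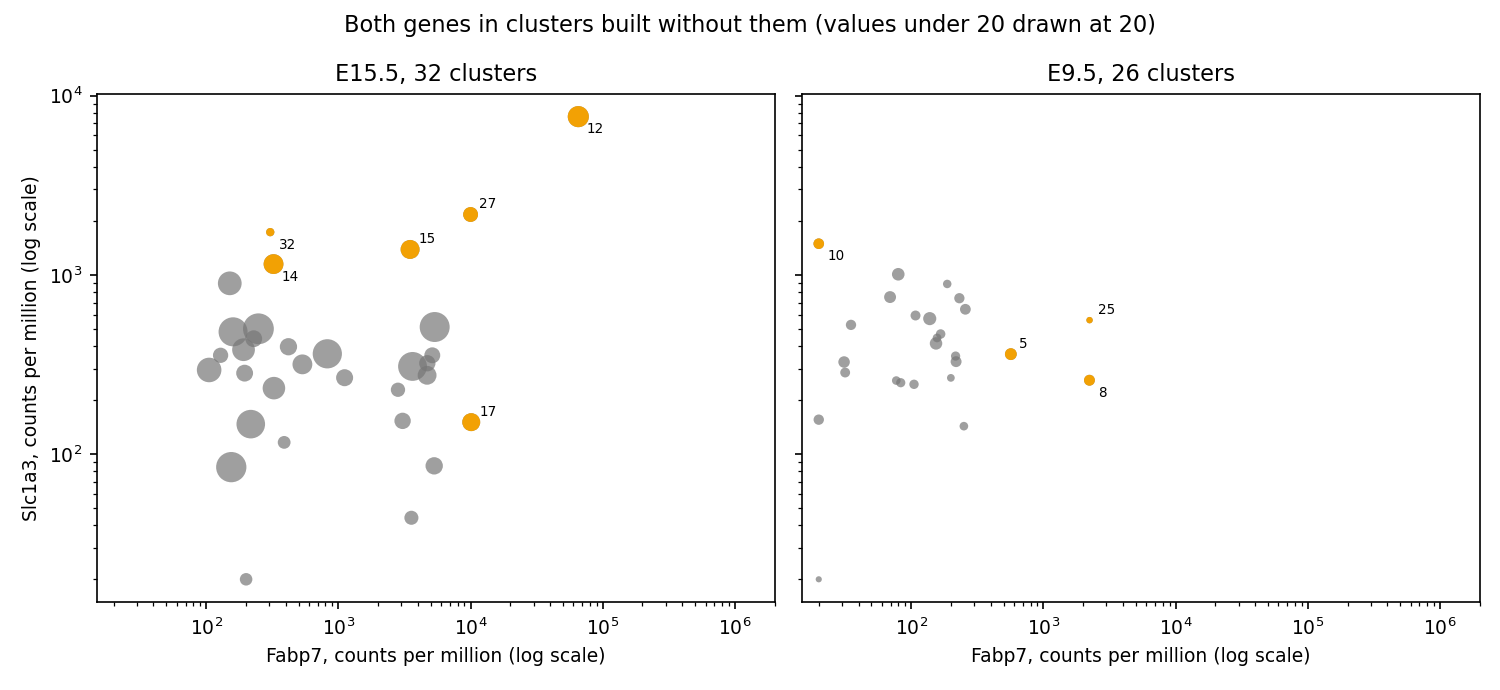
Fabp7 against Slc1a3, both in CPM on log axes, in the 32 E15.5 clusters (left) and the 26 E9.5 clusters (right), built without either gene; point area grows with the number of cells and orange marks clusters with a gene at 2 times its level or more. At E15.5 cluster 12 is highest for both genes, and at E9.5 the clusters high in Fabp7 and in Slc1a3 are different ones.

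At E9.5 much of the little Fabp7 there was lay in 1 cluster, nearly all of that in section 2. Of 26 clusters, cluster 8, with 330 cells and Crabp1 and Cytl1 among its leading genes, had 2232 CPM of Fabp7 (1852 to 2666), 9.73 times the stage's level, and 258 CPM of Slc1a3. Cluster 25, of 39 cells led by Myo10, Higd1b and Prc1, had 2236 CPM on 4 Fabp7 counts (609.2 to 5725). In section 2 cluster 8 had 119 of the 243 Fabp7 counts in 283 cells, or 2419 CPM, against 125.8 CPM in the other cells (19.2-fold, 14.8 to 24.9). There 31.5% of the cells of cluster 8 had a Fabp7 count, against 2.02% of other cells, and it held 19 of the 21 positive cells. The highest blank code had 386.2 CPM in the same cells, so this Fabp7 level was above background although the section's as a whole was not. In section 1 the cluster had 47 cells with 2 of the 10 Fabp7 counts, too few to compare. The cluster was a compact group in section 2: 73% of its cells' 5 nearest neighbours were in it, against 4.47% of the section's cells. Cells up to 25 µm outside it had 571.5 CPM of Fabp7 on 21 counts, and those at 25 to 50 µm had 115.5 CPM. Only 2.12% of its cells lay in the low-Gnas areas. Crabp1 encodes a retinoic acid binding protein, and the panel has no marker that would name these cells.

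At E9.5 the cluster highest in Slc1a3 had no Fabp7 count, and it depended on how finely cells were clustered. Cluster 10, with 298 cells led by Heyl, Kcne3 and B230312C02Rik, had 1493 CPM (1105 to 1974), 2.81 times the stage's level, and 0 Fabp7 counts. At a resolution of 0.5 another cluster was highest, of 589 cells led by Kcne3, Scn7a and Prrx1, with 952.1 CPM or 1.79 times, and 0 clusters reached 2 times. In section 2 cluster 10 had 1541 CPM of Slc1a3, against 497.6 CPM in other cells. In section 1 cluster 10 had 1011 CPM on 3 counts, against 579.2 CPM. Of its cells 62.8% in section 1 and 91.4% in section 2 lay in low-Gnas areas, and its highest blank code had 1206 CPM in section 2; their part was not tested. Cluster 5, led by Cd9, had Fabp7 at 567.7 CPM on 11 counts in cells with a median of 22 and 33 counts in the 2 sections, where blank codes reached 4085 and 2038 CPM. In section 2, Stmn2-rich squares had Fabp7 at 0.398 times (0.182 to 0.756) and Slc1a3 at 0.906 times (0.663 to 1.21) the section, and Scn7a-rich squares had Fabp7 at 1.20 times (0.844 to 1.67) and Slc1a3 at 1.36 times (1.09 to 1.67). Fabp7 was thus above its section's level in Stmn2-rich squares at E15.5 and below it at E9.5, there on 9 counts; this difference between stages was not tested.

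The single-cell overlaps seen at E15.5 could not be seen at E9.5. In section 2, 0 of 21 Fabp7-positive cells were positive for Slc1a3, Stmn2 or Scn7a, where 0.172, 0.245 and 0.113 cells would be expected. Counted from 1 count, 12 cells of section 2 held both Fabp7 and Slc1a3 where 15.9 would be expected, a ratio of 0.754 (0.389 to 1.32). In section 1, 0 cells held both where 0.446 would be expected. Among the positive cells of section 2 the interval of that ratio runs up to 21.4, which spans the E15.5 value.

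Positive and other cells were last compared over all sections, on sums per section with the section as a block, by edgeR's quasi-likelihood test. E9.5 section 1 had 0 Fabp7-positive cells, so the Fabp7 comparison used 4 sums. For Fabp7-positive against other cells, 0 of 295 genes passed (0%), with 32 at an unadjusted p under 0.05. Slc1a3 had 3354 CPM in E15.5 Fabp7-positive cells, against 385.8 CPM in other cells, and 139.7 CPM on 1 count in E9.5 section 2, against 530.4 CPM. Its fitted log2 fold change was 1.61 ± 1.10 (adjusted p = 0.636). Scn7a had 3231 CPM at E15.5 in positive cells, against 357.9 CPM, and 279.5 CPM on 2 counts in E9.5 section 2, against 364.0 CPM (2.04 ± 1.03, adjusted p = 0.449), a change that passed with cells thinned to 50 counts (adjusted p = 2.775e-26), where E9.5 had 1 positive cell. Stmn2 had 88583 CPM at E15.5 in positive cells, against 24466 CPM, and 139.7 CPM on 1 count in E9.5 section 2, against 567.4 CPM (0.87 ± 1.05, adjusted p = 0.806). For Slc1a3-positive against other cells 0 of 295 genes passed (0%), with 9 at an unadjusted p under 0.05. Fabp7 had 53008 CPM in E15.5 Slc1a3-positive cells, against 2014 CPM in other cells, and 0 counts in the E9.5 ones (1.70 ± 1.41, adjusted p = 0.954). Scn7a had 159.3 CPM at E15.5 in Slc1a3-positive cells, against 523.6 CPM in other cells, a fitted change of -1.93 ± 0.66 (adjusted p = 0.672). That change of Scn7a passed under upper-quartile scaling (-2.22, adjusted p = 0.0458). It also passed with cells thinned to 50 counts, at an extreme size (-12 ± 2.74, adjusted p = 0.0283). There the E9.5 sections kept 1 and 4 Slc1a3-positive cells, and 0 E15.5 cells were positive for both genes. Stmn2 had 26619 CPM at E15.5 in Slc1a3-positive cells, against 28072 CPM in other cells, and 0 and 4 counts in those of E9.5 sections 1 and 2 (-0.63 ± 0.93, adjusted p = 0.954). The E15.5 differences within cells therefore stand as a description of 1 section.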

How the data were processed

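Members and gene lists were chosen with earlier results of these data known. Whole-number counts of 296 genes and 19 blank codes per segmented cell are as the authors deposited them; how codes were decoded and cells drawn is not given in the sources used here. Scanpy and Seurat are named, without a role, per the submitters' processing notes. Cell centres carry no unit per the file headers and were read as micrometres, the unit of MERSCOPE output.

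Cells with at least 10 gene counts were kept, and no doublet caller was run since cells come from segmentation. Python 3.11.15 with numpy 2.4.6, scipy 1.17.1 and pandas 2.3.3 gave CPM, exact Clopper-Pearson and Poisson intervals, squares and distances. Cells with at least 2 counts of a gene were called positive for it. Clusters were built per stage without Fabp7 and Slc1a3 (30 principal components, 15 nearest neighbours, Leiden at resolution 1, igraph 0.11.9) and carry a name only where fixed markers lead them. Section sums were tested with edgeR 4.0.16 in R 4.3.3 (TMM, summed count of at least 30, adjusted p below 0.05), a procedure first tested on simulated data, with DESeq2 1.42.0 as an alternative. Since nothing says how the embryos were chosen, p-values measure the spread between these sections only.

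Genes were named by rule: Fabp7, Slc1a3, Stmn2 and Scn7a, the 8 most and 4 least alike across squares, list genes, and the 3 leading genes of each cluster described. The leading genes of cell sets were added after values were seen, and some leading genes are not reported here. Alternatives covered scaling, tool, volume, blank subtraction, thinning, cell filters, low-Gnas areas, large cells, square size, cluster settings and leaving out sections.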

Additional observations from a re-analysis of the deposited data

Results flagged for a closer look

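The 3 genes measured beside Fabp7 stood apart in opposite directions at E15.5 and at E9.5, where each stage had 1 section with Fabp7-positive cells. In positive against other cells, the log2 fold of Slc1a3 was 3.12 at E15.5 and -1.92 in E9.5 section 2. For Stmn2 it was 1.86 at E15.5 and -2.02 in E9.5 section 2, and for Scn7a it was 3.17 and -0.38. The differences between stages were not tested. The E9.5 values rest on 21 positive cells with 1 count of Slc1a3, 1 of Stmn2 and 2 of Scn7a, and their counting intervals reach above a fold of 1 for all 3 genes (up to 1.47, 1.38 and 2.79).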

How the results depend on the processing

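Over 29 results and 135 alternatives, 84 were counted as kept. For tested changes this means the same direction and side of the threshold, whatever the size. Fabp7 in Slc1a3-positive cells, for example, counted as kept at 0.0229 under DESeq2, against 1.70 in the main fit. Numbers of called genes had to stay of similar size, and values without a test had to stay within a set range. The stage change of Fabp7 passed under every alternative with a test and lay between 3.73 and 4.26 when an E9.5 section was left out. That of Slc1a3, near 0, turned to 0.25 under upper-quartile scaling, 0.04995 under DESeq2 and 0.0494 with blank codes subtracted, and lay between -0.0801 and 0.259 with a section left out. The 44 genes called by stage became 27 under upper-quartile scaling (22 higher and 5 lower, where the median of all genes moved from -0.15 to 0.12), 92 under DESeq2 (46 and 46), 11 per cell volume (10 and 1) and 23 without the low-Gnas areas of E9.5 (16 and 7). Fabp7 had 3.71 per volume and 3.40 without the low-Gnas areas, both past the threshold.

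Against 0 main calls, Fabp7-positive cells gave 4 from 3 counts, 4 under upper-quartile scaling, 4 under DESeq2 and 155 at 50 counts per cell, where E9.5 had 1 positive cell. Slc1a3-positive cells gave 3 under upper-quartile scaling, 18 at 50 counts, and between 0 and 1 with a section left out, the 1 without E9.5 section 2. Fabp7 in them lay between -9.00 and 3.77 with a section left out, negative without the E15.5 section, where it had 0 counts in positive cells. Thinning to 50 counts gave positive shares of 2.40% for Fabp7 and 0.216% for Slc1a3.

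Observed over expected cells moved to 32.9 from 3 counts and 28.8 thinned for Fabp7 with Slc1a3, 3.57 and 2.73 for Fabp7 with Stmn2, 13.7 and 3.22 for Fabp7 with Scn7a, 2.28 and 1.32 for Slc1a3 with Stmn2, and 0 and 0 for Slc1a3 with Scn7a. With 200 µm squares and with a 3-fold threshold, Fabp7 stood at 2.64 and 2.18 times the section in Stmn2-rich squares and at 1.29 and 1.89 times in Scn7a-rich squares, and Slc1a3 stood at 1.30 and 0.909 times in Stmn2-rich squares, on both sides of 1. The correlation of both genes was 0.30 over 860 squares of 200 µm. At E15.5 the highest cluster was led by Mfsd2a under each setting run: Fabp7 had 88328 CPM on all genes and 60140 CPM at resolution 0.5, and Slc1a3 had 9863 and 7179 CPM. Causes were not tested. Leaving out cells over 3 times the median volume, chosen after seeing the data, moved no overlap past its interval.

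No paired analysis was possible because, between stages, the sections come from different embryos; positive and other cells were compared within sections. E15.5 has 1 section, and the small number of positive E9.5 cells limits every overlap there.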
